A study of Mus musculus with 4 samples.

Results

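Interferon-stimulated genes are the antiviral and immune genes that cells switch on after they sense an interferon. The set described here holds 44 such genes, chosen by symbol from the IFIT, OAS, Mx, GBP, Schlafen and HIN-200 families, the nucleic acid sensors, the transcription factors of the pathway and a group of single effectors. All 44 were present among the 49993 genes of each count table. The values come from bulk RNA-seq of CD11b+ cells, which the labels call microglia, taken with magnetic beads from mouse brain at 10 months of age. Every animal carried APP/PS1, a transgene pair that makes amyloid build up in the brain. The AD group (2 libraries) was APP/PS1+ asrij+/+, and the AD/KO group (2 libraries) was APP/PS1+ asrij-/-, in which asrij (Ociad1) had been deleted constitutively, so that no cell type was targeted. No group without APP/PS1 was analysed here. The labels do not say whether a library is 1 mouse or a pool, or whether the replicates were separate animals, so that p-values measure only the spread between these libraries.

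Type I interferons bind a receptor made of Ifnar1 and Ifnar2, whose kinases Jak1 and Tyk2 phosphorylate Stat2. Stat2 acts with Irf9 in a complex that binds the interferon-stimulated response element (ISRE) in promoters, while interferon gamma acts on the gamma-activated site (GAS). In amyloid models a part of the microglia is known to carry an interferon program, and these genes are among its usual markers.

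Of the 44 genes, 34 have a promoter window in the RefSeq table for GRCm38.p6, and the 250 bases before each start were searched on both strands for the ISRE core GAAANNGAAA (TTTCNNTTTC on the other strand). It was found in 18 of the 34 genes (52.9%), against 3.16% of the 14936 tested genes with a window. The GAS word TTCNNNGAA was found in 6 of the 34 (17.6%), against 7.28%. The words lay 14 to 222 bases before the start, and 7 of the genes held 2 or more of them. The stretches below are printed because they belong to genes whose values the results turn on. Each is read 5′ to 3′ in the direction of the gene, with the ISRE core in capitals, and the capitals run on where 2 or more words overlap.
Isg15, chr4:156200850-156200909 (minus strand): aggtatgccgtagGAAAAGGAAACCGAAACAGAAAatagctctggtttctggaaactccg
Oas1a, chr5:120907526-120907564 (minus strand): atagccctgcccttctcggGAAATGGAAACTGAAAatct
Ifit1, chr19:34640779-34640838 (plus strand): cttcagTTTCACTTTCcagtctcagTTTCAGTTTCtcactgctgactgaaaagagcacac
Ifit3, chr19:34583382-34583441 (plus strand): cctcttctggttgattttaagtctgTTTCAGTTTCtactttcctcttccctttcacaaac
Ifit3b, chr19:34607778-34607837 (plus strand): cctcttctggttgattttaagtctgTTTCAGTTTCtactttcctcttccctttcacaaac
Cxcl10, chr5:92349068-92349127 (minus strand): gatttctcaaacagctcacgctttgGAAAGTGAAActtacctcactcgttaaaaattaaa
Rsad2, chr12:26456538-26456597 (minus strand): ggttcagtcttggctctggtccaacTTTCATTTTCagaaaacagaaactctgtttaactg
Slfn5, chr11:82951922-82951981 (plus strand): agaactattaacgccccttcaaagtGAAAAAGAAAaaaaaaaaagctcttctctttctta
Stat2, chr10:128270251-128270310 (plus strand): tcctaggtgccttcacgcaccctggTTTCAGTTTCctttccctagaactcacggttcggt
The stretches of Ifit3, Ifit3b and Slfn5 lie inside the RefSeq span of the gene and that of Oas1a overlaps its first bases, because RefSeq also places a start farther out; none touches a GENCODE exon. Ifit3 and Ifit3b are identical over the 60 bases shown. The members with an ISRE core had a median log2 fold change of −0.84 (n = 18) and those without one −0.85 (n = 15), so the word did not separate genes by the size of their difference. A word in a promoter is a description and not a bound site.

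The libraries held 13102622 to 19810076 counts, and the labels give no batch or date. The reads of Ociad1 numbered 691 and 1032 in AD, and 746 and 592 in AD/KO (log2 fold change −0.68, SE 0.29). Its transcript was not lost, and the group names AD and AD/KO below mean the libraries labelled so. AD replicate 2 was the only library with many Xist reads (1391, against 3 to 15 in the others), and its neutrophil markers summed to 4531 CPM (counts scaled to a common library size), against 336 to 529 CPM elsewhere. The homeostatic microglia markers summed to 21270 and 14661 CPM in AD and to 22065 and 7295 CPM in AD/KO (replicates 1 and 2), with 0 of the 14 markers at 0. The astrocyte markers ran the other way, from 1885 CPM in AD replicate 1 to 11798 CPM in AD/KO replicate 2, and the neuron markers from 364 to 2960 CPM. T and NK cell markers were close to 0 in every library (0.760 to 3.81 CPM). In bulk samples, fewer cells of a type and less RNA per cell cannot be told apart.

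**Figure D1:**
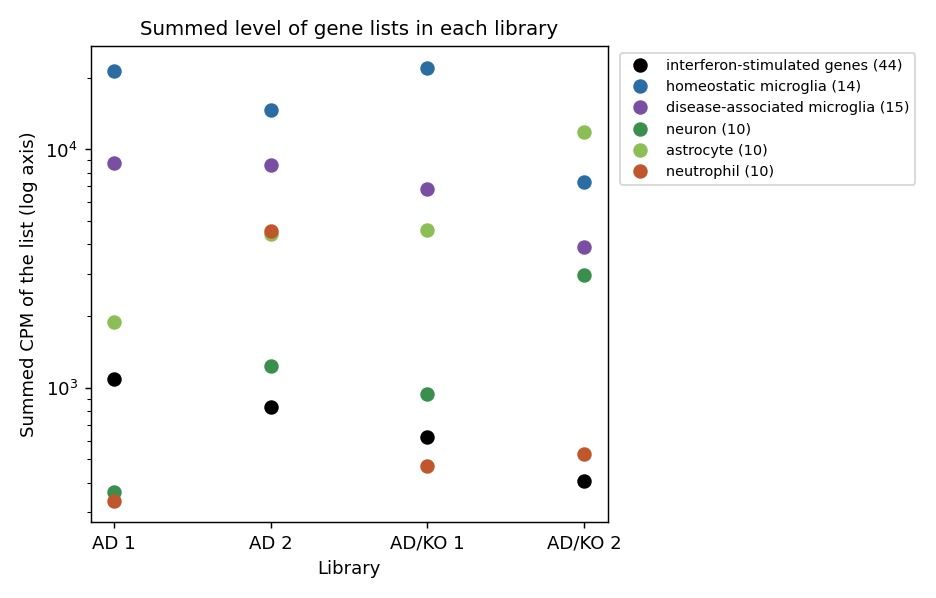
Summed CPM of 6 gene lists (log axis) in the 4 libraries, 1 point per list and library. The 44 interferon-stimulated genes stepped down from 1083 CPM in AD replicate 1 to 405 CPM in AD/KO replicate 2, while the homeostatic microglia list was as high in AD/KO replicate 1 as in AD replicate 1.

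Most interferon-stimulated genes had their 2 lowest levels in the AD/KO libraries. Of the 43 members with enough reads to be tested, 41 were lower in AD/KO, against 52.8% of the 21439 genes tested, and 2 were higher (background 47.2%). In 31 of the 43 the groups did not overlap and AD/KO was lower (background 21.7%), and in 0 was AD/KO higher without overlap (background 20.3%). The median log2 fold change of the members was −0.98, against −0.05 over all genes tested. The mean AD/KO level lay under 50% of the AD level in 21 members (background 8.95% of genes). The members and the pathway lists below were chosen with earlier results of these data known. Shares set beside the background, here and below, are therefore descriptions and no support from an independent list.

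No member passed the test. In the quasi-likelihood test of edgeR, adjusted by Benjamini-Hochberg over all genes, 0 of the 43 members had an adjusted p under 0.05, as did 0.0% of all genes, and their adjusted p-values ran from 0.680 to 0.994. An unadjusted p under 0.05 was found for 15 members, all lower (background 2.3%), and for 0 that were higher (background 2.7%). DESeq2 called 0 of the 43 members to which it gave an adjusted p (background 0.254% lower), with a smallest adjusted p of 0.0520. A fit with the replicate number as a block called 25 members, all lower (background 6.79%), but the labels do not say that these numbers pair the libraries. An exact permutation test of 2 libraries against 2 cannot give a two-sided p under 0.333 and was not used.

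The libraries were not evenly spaced within the groups. The highest level of a member was found in AD replicate 1 for 30 of the 43 genes, in AD replicate 2 for 11 and in AD/KO replicate 2 for 2 (Stat2 and Ifit3b). The lowest was found in AD/KO replicate 2 for 32, in AD/KO replicate 1 for 10 and in AD replicate 1 for 1 (Ifit3b). AD/KO replicate 2 lay below both AD libraries in 40 members, and AD/KO replicate 1 in 33.

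**Figure D2:**
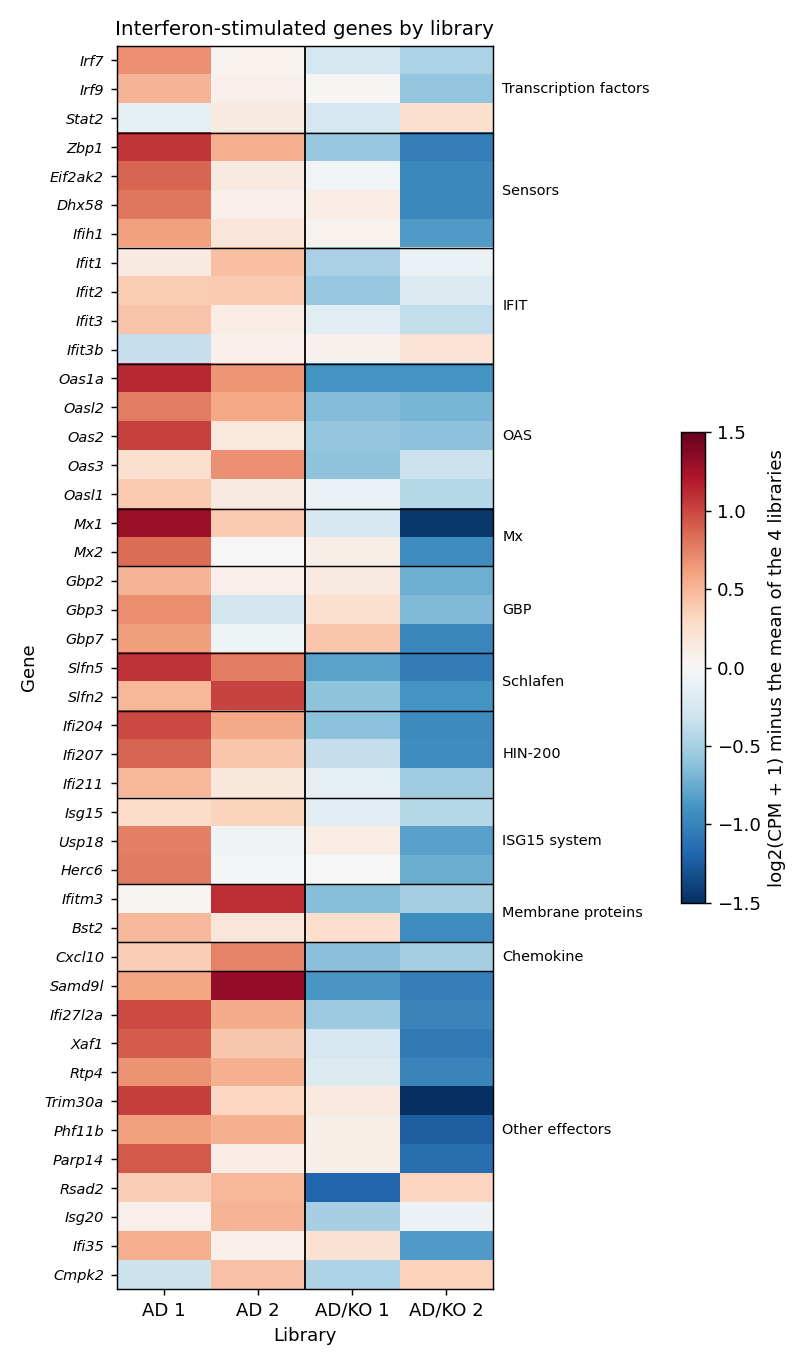
Level of the 43 members tested (rows, by family) in the 4 libraries (columns), as log2(CPM + 1) minus the mean of the 4 libraries, with red above and blue below that mean. The AD columns are mostly red and the AD/KO columns mostly blue, with Rsad2, Cmpk2, Stat2 and Ifit3b breaking the pattern in AD/KO replicate 2.

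Since the microglial markers also differed between libraries, the members were set against them. The summed reads of the 44 genes were 5.09% and 5.64% of those of the homeostatic list in the AD libraries, and 2.83% and 5.55% in AD/KO replicates 1 and 2. On this scale the sum in AD/KO replicate 2 therefore lay between the AD libraries, and the sum in AD/KO replicate 1 below them. The largest part of the sum in AD/KO replicate 2 was Stat2, at 1.19% of the homeostatic list. Stat2 came to 0.313% and 0.549% in AD and to 0.277% in AD/KO replicate 1. The place of AD/KO replicate 2 among the sums thus leans on Stat2. With the libraries scaled to the homeostatic list, 0 members had an unadjusted edgeR p under 0.05, against 15 on the TMM scale. Of all 21439 genes, 477 had one with this scaling, and the smallest edgeR adjusted p of a member was 0.911. The median log2 fold change of the members was −0.46 against 0.58 over all genes. The members' median thus lay 1.03 below that of all genes on this scale and 0.93 below on the TMM scale. Scaling shifts every gene by a similar amount, so that this gap could change little and is no check on microglial share. The groups did not overlap, with AD/KO lower, in 21 members on the homeostatic scale (background 10.9%; 0 were higher, background 6.16%) and in 18 on both scales (background 6.77%). The 18 were Oas1a, Oasl1, Oasl2, Mx1, Slfn5, Ifi204, Ifi207, Ifi211, Zbp1, Eif2ak2, Cxcl10, Rtp4, Xaf1, Ifi27l2a, Parp14, Trim30a, Phf11b and Samd9l. The part that microglial share plays in the members' differences was not tested.

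**Figure D3:**
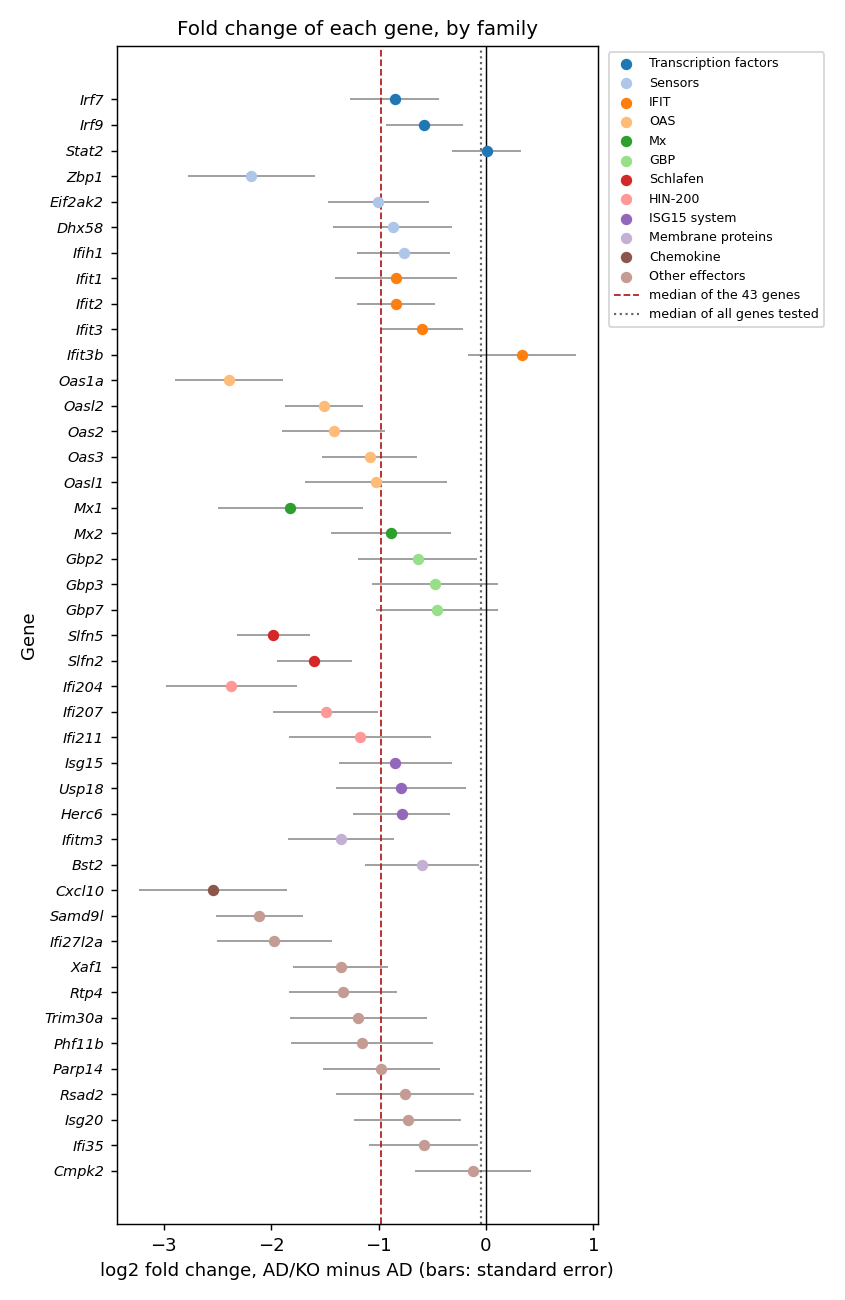
Log2 fold change (AD/KO minus AD) of each of the 43 members with its standard error, coloured by family. The dashed line marks the members' median of −0.98 and the dotted line the median of all genes tested, −0.05.

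The transcription factors that carry the signal differed in size. Of the 3 factors, 2 were lower without overlap (background 21.7%) and 1 was not. Irf7, which amplifies interferon production, stood at 16.5 and 10.3 CPM in AD and at 8.03 and 6.78 CPM in AD/KO (log2 fold change −0.85, SE 0.42). Irf9, the DNA-binding part of the complex, stood at 59.5 and 43.8 CPM in AD and at 42.2 and 27.2 CPM in AD/KO (log2 fold change −0.57, SE 0.36). The lower AD library and the higher AD/KO library of Irf9 were close. Stat2, its partner, stood at 66.6 and 80.5 CPM in AD and at 61.0 and 86.7 CPM in AD/KO, with a log2 fold change of 0.01 (SE 0.32) and an edgeR adjusted p of 0.994. In both groups replicate 2 was the higher for Stat2, the order in which the neuron and astrocyte markers ran within each group.

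All 4 nucleic acid sensors were lower in AD/KO (background 52.8%), 3 of them without overlap (background 21.7%). Zbp1, which senses Z-form nucleic acids and can start cell death, was at 7.48 and 4.86 CPM in AD and at 1.72 and 0.977 CPM in AD/KO. The AD/KO mean came to 21.9% of the AD mean (log2 fold change −2.18, SE 0.59, edgeR adjusted p = 0.680). Zbp1 stood apart from the other sensors, whose log2 fold changes were −1.002 for Eif2ak2 (PKR, which halts translation on double-stranded RNA), −0.87 for Dhx58 (LGP2) and −0.77 for Ifih1 (MDA5). Dhx58 was at 21.5 and 12.7 CPM in AD and at 13.03 and 5.64 CPM in AD/KO, so that the groups overlapped slightly. Eif2ak2 was among the more abundant sensors, at 75.5 and 44.9 CPM in AD and at 39.7 and 20.4 CPM in AD/KO. Ifih1 stood at 37.7 and 27.7 CPM in AD and at 25.4 and 13.1 CPM in AD/KO, with AD replicate 2 and AD/KO replicate 1 close together. With the neuron and astrocyte level as a covariate, Eif2ak2 was at −0.21 and Dhx58 at 0.01, whereas Zbp1 was at −1.53. Covariate and group are hard to part in 4 libraries, so that values from this fit are descriptive here and below.

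The IFIT genes, whose proteins bind the ends of foreign RNA, sit together on chromosome 19 (34550550 to 34650009 on GRCm38.p6). Of the 4, 3 were lower without overlap (background 21.7%), with log2 fold changes of −0.84 for Ifit1, −0.84 for Ifit2 and −0.60 for Ifit3. Ifit2 (gene ID 15958) stood at 14.4 and 14.5 CPM in AD and at 6.99 and 9.23 CPM in AD/KO, with an SE of 0.36 on its log2 fold change. Ifit1 was scarce, at 2.61 and 3.50 CPM in AD and at 1.36 and 2.06 CPM in AD/KO, and Ifit3 stood at 11.98 and 9.40 CPM in AD and at 7.66 and 6.46 CPM in AD/KO. In contrast to these 3, Ifit3b was highest in AD/KO replicate 2. Ifit3b stood at 2.69 and 3.93 CPM in AD and at 3.91 and 4.45 CPM in AD/KO (log2 fold change 0.33, SE 0.50), and the groups overlapped. Its transcript matches that of Ifit3 at 97.8% identity over 1700 bases, so that the split of reads between these copies is uncertain. With scaling to the homeostatic list, Ifit1 was at −0.09, Ifit2 at −0.08, Ifit3 at 0.03 and Ifit3b at 0.99, and the family did not differ in 1 direction on that scale.

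The OAS family was the largest in which the groups did not overlap in any member, with AD/KO lower in all 5 (background 21.7%). These enzymes make the short 2′-5′ adenylate chains that activate RNase L, while the OAS-like proteins act in other ways. All lie on chromosome 5, Oas2, Oas3 and Oas1a between 120730333 and 120907544 and Oasl2 and Oasl1 between 114896926 and 114937911. Oas1a (gene ID 246730) stood at 8.78 and 6.09 CPM in AD and at 1.41 CPM in both AD/KO libraries. That is 19.0% of the AD level (log2 fold change −2.39, SE 0.51, edgeR adjusted p = 0.680). Oas1a matches Oas1g at 97.6% identity over 1861 bases, so that reads may be shared. Oas1g was lower as well (log2 fold change −1.69).

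Oasl2 (gene ID 23962) stood at 16.0 and 13.95 CPM in AD and at 5.37 and 5.16 CPM in AD/KO (log2 fold change −1.51, SE 0.36). It moved the least of the members, with log2 fold changes of −1.54 to −1.42 when each library was left out in turn. Oas2 stood at 16.6 and 8.67 CPM in AD and at 4.80 and 4.67 CPM in AD/KO (log2 fold change −1.42, SE 0.48). Oas3 stood at 7.62 and 10.7 CPM in AD and at 3.81 and 4.83 CPM in AD/KO (−1.08, SE 0.44). Oasl1, which restrains Irf7 translation, was the lowest in level (1.74 and 1.29 CPM in AD, 0.938 and 0.543 CPM in AD/KO) and at −1.02 (SE 0.66).

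Mx1 and Mx2, neighbouring dynamin-like antiviral GTPases on chromosome 16, are annotated by RefSeq as transcribed pseudogenes on this C57BL/6J assembly. Mx1 (97447035 to 97462906) stood at 21.6 and 11.1 CPM in AD and at 6.83 and 2.39 CPM in AD/KO (log2 fold change −1.82, SE 0.67). Mx2 (97536081 to 97560901) stood at 22.2 and 11.99 CPM in AD and at 12.7 and 5.81 CPM in AD/KO (log2 fold change −0.88, SE 0.56). The groups overlapped in Mx2 and not in Mx1. With the neuron and astrocyte level as a covariate Mx2 was at 0.05 and Mx1 at −0.75. The transcripts share 95.3% identity over 843 bases.

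The GBP genes, GTPases that coat pathogen vacuoles and respond strongly to interferon gamma, showed the smallest median difference of any family of 3 or more (−0.47). All 3 overlapped between the groups. Gbp7 stood at 57.0 and 34.9 CPM in AD and at 49.0 and 18.0 CPM in AD/KO (log2 fold change −0.46, SE 0.57, edgeR adjusted p = 0.769). Gbp2 stood at 8.42 and 5.96 CPM in AD and at 6.26 and 2.98 CPM in AD/KO (−0.64, SE 0.55), and Gbp3 at 14.9 and 7.13 against 10.6 and 5.21 CPM (−0.47, SE 0.59). In each of these genes replicate 1 was above replicate 2 in both groups, as for the homeostatic microglia markers. Without AD/KO replicate 2, Gbp7 was at 0.10 and Gbp3 at −0.04.

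The Schlafen genes, regulators of cell growth and viral replication on chromosome 11, were both lower in AD/KO without overlap (background 21.7%). Slfn5 (gene ID 327978, 82951349 to 82964850) stood at 32.6 and 25.9 CPM in AD and at 8.13 and 6.67 CPM in AD/KO. The AD mean was 29.3 ± 4.70 CPM (SD, n = 2), and the AD/KO mean was 7.40 ± 1.03 CPM (SD, n = 2). The log2 fold change was −1.98 (SE 0.34), and Slfn5 had the smallest unadjusted p of all members. The antisense gene Slfn5os overlaps 8.84% of its exonic length, and the use of strand in counting is not given in the sources used here. Slfn2 stood at 28.7 and 41.5 CPM in AD and at 12.9 and 10.3 CPM in AD/KO (log2 fold change −1.60, SE 0.35). AD replicate 2, the library high in neutrophil markers, was the highest for Slfn2, and without it the log2 fold change was −1.24.

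The HIN-200 genes form a cluster on chromosome 1 (173723424 to 173913087 for the 3 members) and encode DNA-binding proteins of the nucleus and cytosol. All 3 were lower in AD/KO without overlap (background 21.7%). Ifi204 stood at 5.37 and 3.75 CPM in AD and at 1.09 and 0.651 CPM in AD/KO, 19.1% of the AD level (log2 fold change −2.37, SE 0.61). Ifi207 stood at 12.1 and 8.61 CPM in AD and at 4.59 and 2.77 CPM in AD/KO (−1.49, SE 0.49), and Ifi211 at 2.25 and 1.598 against 1.09 and 0.597 CPM (−1.18, SE 0.66). Ifi204 and Ifi211 share 96.9% identity over 1363 bases, and both match Mndal at over 95%, so that counts within the cluster are uncertain. Of the cluster's other genes, Mndal stood at 3.41 and 2.34 CPM in AD and at 0.209 and 0.326 CPM in AD/KO (−3.39, SE 0.69, edgeR adjusted p = 0.680). Ifi203 was at −1.61, Ifi209 at −1.87 and Ifi208 at −2.26. Ifi206 was at −1.49 (SE 0.73) and Ifi213 at −1.32 (SE 1.15), the latter with overlapping groups. Ifi205 and Ifi214 had too few reads to be tested.

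Isg15, a ubiquitin-like protein that is joined to other proteins, had few reads (44 and 55 in AD, 40 and 29 in AD/KO). It stood at 3.19 and 3.38 CPM in AD and at 2.09 and 1.57 CPM in AD/KO (log2 fold change −0.84, SE 0.53). Its transcript matches that of AC151275.1 at 95.2% identity over 482 bases, so that reads may be shared. Herc6, the mouse ligase that attaches Isg15, stood at 48.0 and 26.9 CPM in AD and at 27.4 and 16.0 CPM in AD/KO (−0.78, SE 0.45). Usp18, which removes Isg15 and restrains the receptor, stood at 11.3 and 6.02 CPM in AD and at 6.88 and 3.15 CPM in AD/KO (−0.79, SE 0.61). Of the 3, Isg15 alone was without overlap (background 21.7% lower). Isg15 also moved the least when each library was left out, from −1.01 to −0.64, whereas Usp18 ran from −1.41 (without AD/KO replicate 1) to −0.27 (without AD replicate 1) and Herc6 from −1.17 to −0.31 without the same libraries.

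Among the membrane proteins, Ifitm3, which hinders the fusion of viruses with endosomes and has also been described as a partner of gamma-secretase, stood at 11.8 and 26.1 CPM in AD and at 7.04 and 7.87 CPM in AD/KO. The log2 fold change was −1.35 (SE 0.49) with all libraries and −0.60 without AD replicate 2, in which neutrophil and monocyte markers were highest (4531 and 610 CPM, against at most 529 and 232 CPM elsewhere). The part of those cells in the result was not tested. Per kilobase of exon, Ifitm3 (19.5 CPM per kb) and Bst2 (16.9) were the most abundant members and Ifi44 (0.0422) the least. Bst2, or tetherin, which holds virus particles at the cell surface, stood at 20.5 and 16.4 CPM in AD and at 17.4 and 6.95 CPM in AD/KO (log2 fold change −0.60, SE 0.53), with overlapping groups. The log2 fold change of Bst2 was −0.07 without AD/KO replicate 2 and −1.35 without AD/KO replicate 1.

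Cxcl10, a chemokine that draws T cells through Cxcr3, had the largest fold change of the members at a low level. It had 21 and 37 reads in AD and 5 and 7 in AD/KO, or 1.52 and 2.27 against 0.261 and 0.380 CPM. The AD/KO mean was 16.9% of the AD mean (log2 fold change −2.54, SE 0.69, edgeR adjusted p = 0.680). Across the alternatives the log2 fold change ran from −3.08 to −1.92. Cxcl10 (chromosome 5, 92346638 to 92348889) and the OAS genes make up the 6 members on the chromosome that carries Ociad1 (73292769 to 73314077), and 5.91% of its exonic length is overlapped by Art3 on the other strand.

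**Figure D4:**
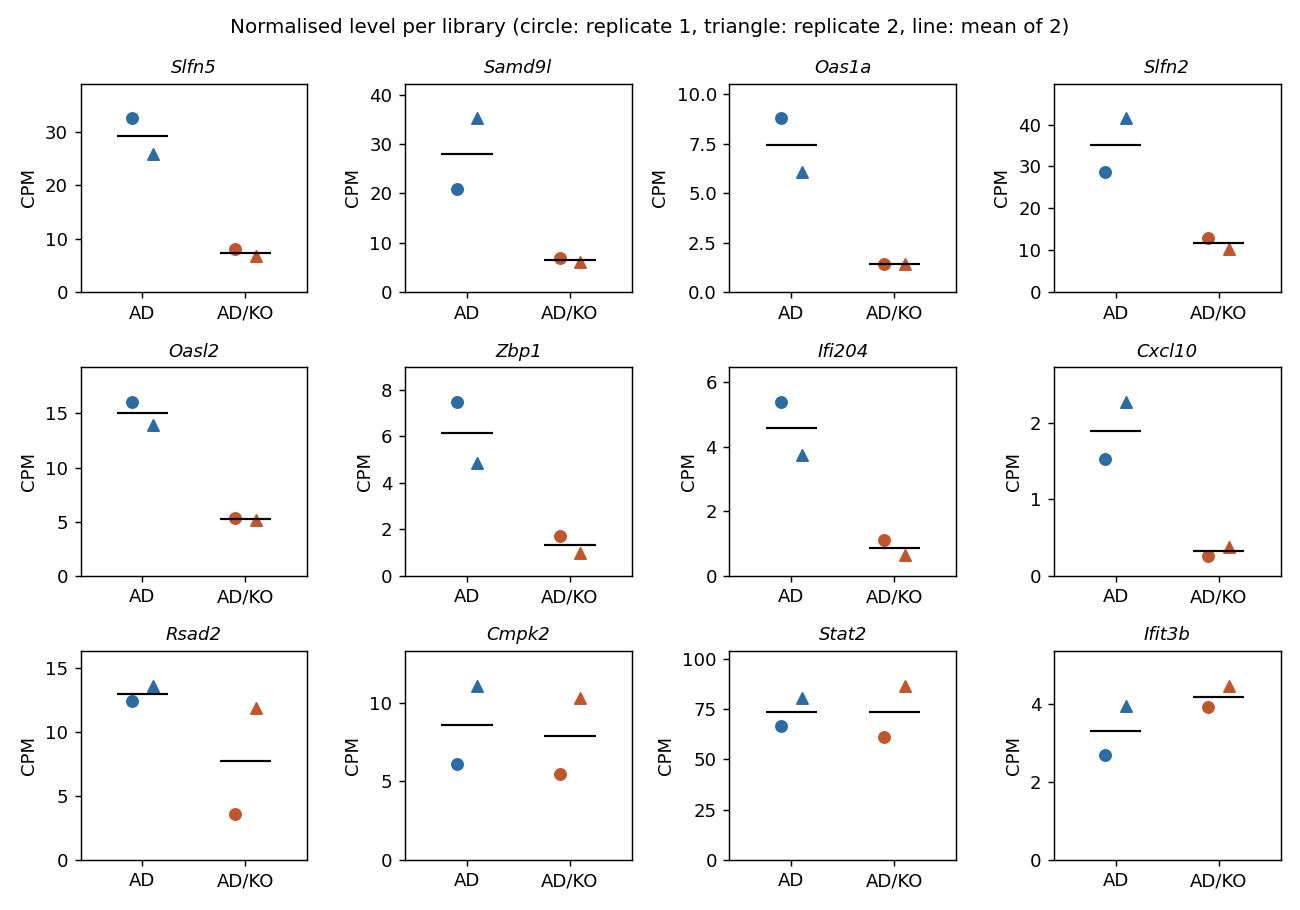
CPM of 12 members in each library on linear axes from 0, with circles for replicate 1, triangles for replicate 2 and lines for the mean of 2. In the upper 8 panels both AD/KO libraries lie well below both AD libraries, and in the lower 4 (Rsad2, Cmpk2, Stat2 and Ifit3b) they do not separate in that way.

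The other effectors were lower as a group, 11 of the 11 tested (background 52.8%), 9 of them without overlap (background 21.7%). Their median log2 fold change was −1.16. Samd9l, a restrictor of poxviruses and of cell growth, stood at 20.8 and 35.2 CPM in AD and at 6.88 and 6.08 CPM in AD/KO, 23.1% of the AD level (log2 fold change −2.11, SE 0.41). Without AD replicate 2 it was at −1.62. Ifi27l2a stood at 8.49 and 6.09 CPM in AD and at 2.29 and 1.41 CPM in AD/KO (−1.97, SE 0.54). These 2 were the lowest of the group relative to AD.

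Xaf1, which binds the apoptosis inhibitor Xiap, stood at 33.7 and 23.5 CPM in AD and at 14.5 and 7.87 CPM in AD/KO (log2 fold change −1.35, SE 0.44). Rtp4, a Golgi chaperone of G protein-coupled receptors, stood at 11.1 and 10.0 CPM in AD and at 5.58 and 2.82 CPM in AD/KO (−1.33, SE 0.50). Parp14, an ADP-ribosyltransferase with the most reads of any member when the 4 libraries are summed, stood at 169.8 and 96.0 CPM in AD and at 94.9 and 40.2 CPM in AD/KO (−0.98, SE 0.55). AD replicate 2 and AD/KO replicate 1 were almost level for Parp14. For Trim30a and Phf11b, AD/KO replicate 2 was by far the lowest in CPM, and AD/KO replicate 1 also lay below both AD libraries. Trim30a stood at 115 and 68.8 CPM in AD and at 61.4 and 19.1 CPM in AD/KO (−1.19, SE 0.64), and Phf11b at 9.87 and 9.28 against 6.57 and 2.01 CPM (−1.16, SE 0.66). Without AD/KO replicate 2 they were at −0.57 and −0.53. Relative to the homeostatic list, the AD/KO libraries were close to each other for both genes. Trim30a came to 0.541% and 0.469% of that list in AD and to 0.278% and 0.262% in AD/KO. Phf11b came to 0.0464% and 0.0633% in AD and to 0.0298% and 0.0275% in AD/KO. Phf11b matches Phf11a at 97.0% identity over 864 bases.

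Rsad2 (viperin, which makes a chain-terminating nucleotide) and its neighbour Cmpk2 (a nucleotide kinase), 2 adjacent genes on chromosome 12, did not follow the other effectors. Rsad2 stood at 12.4 and 13.6 CPM in AD and at 3.55 and 11.9 CPM in AD/KO (log2 fold change −0.75, SE 0.64). AD/KO replicate 2 was thus close to AD but just below both AD libraries, so that Rsad2 is counted above as without overlap. Without AD/KO replicate 1 it was at −0.08, and without AD/KO replicate 2 at −1.86. Cmpk2 stood at 6.10 and 11.1 CPM in AD and at 5.47 and 10.3 CPM in AD/KO (−0.12, SE 0.54, edgeR adjusted p = 0.931). Isg20, an exonuclease, stood at 4.72 and 6.70 CPM in AD and at 2.82 and 4.07 CPM in AD/KO (−0.73, SE 0.50), without overlap. Ifi35 stood at 22.3 and 15.7 CPM in AD and at 17.6 and 7.81 CPM in AD/KO (−0.58, SE 0.51), and the groups overlapped. A gene on the other strand covers 16.8% of its exonic length. Ifi44, with 5, 3, 1 and 8 reads, was not tested.

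**Figure D5:**
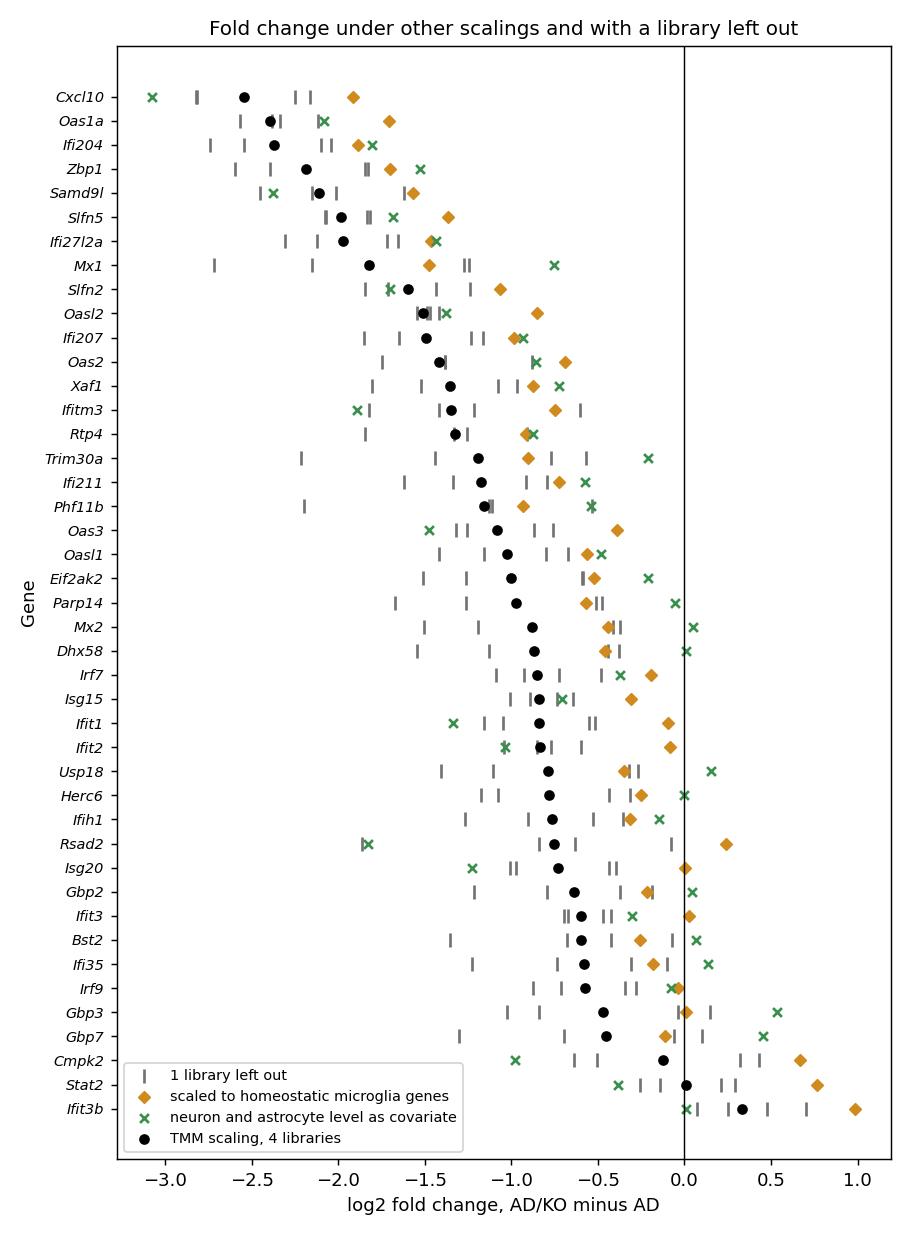
Log2 fold change (AD/KO minus AD) of the 43 members, in order of size, with all 4 libraries (black), with each library left out (grey bars), with scaling to homeostatic microglia genes (orange) and with the neuron and astrocyte level as a covariate (green). From Cxcl10 to Rtp4 all marks lie below 0, and 29 of the 43 members lie below 0 in every alternative run.

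Other genes of the pathway were taken from 7 lists of 130 symbols, of which 97 could be tested. Of these 97, 0 passed the test (edgeR adjusted p from 0.680 to 0.979), 92 were lower (background 52.8%), 37 of them without overlap (background 21.7%), and 1 was higher without overlap (Socs1; background 20.3%). The interferon genes themselves were close to silent, with 13 of 21 at 0 reads in all 4 libraries, among them Ifnb1 and Ifng. Of the 8 with any read, Ifnk had 12 and 2 reads in AD and 5 and 4 in AD/KO, Ifnab 1 and 0 against 0 and 2, and Ifne 0 and 0 against 1 and 1. Ifna11, Ifna12, Ifna14, Ifna16 and Ifnz had 1 read each. At 3 reads as the limit that a count of 0 allows, low transcript levels of interferon were not detectable at this depth.

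The 6 interferon receptor chains were all lower (background 52.8%) and all overlapped between the groups, with a median log2 fold change of −0.71. Ifngr1 stood at 322 and 230 CPM in AD and at 331 and 89.2 CPM in AD/KO, the pattern of the homeostatic markers, and Ifngr2 was at −0.74. Of the 9 kinases and factors, 2 were lower without overlap, a share near the background of 21.7%. Among them was Jak2, a kinase of the interferon gamma receptor (log2 fold change −0.39, SE 0.26). Irf8 (−0.65) and Irf5 (−0.50), the most abundant of that list, overlapped.

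Among 14 tested genes of upstream sensing, 13 were lower (background 52.8%), 4 without overlap, a share near the background of 21.7%, and the median was −0.51. Tlr7 was at −0.69, and Adar, which edits double-stranded RNA, was at 0.20 with overlapping groups. Of the 5 brakes on the pathway, 4 were lower (background 52.8%), 2 of them without overlap (background 21.7%). These 2 were Socs3 (log2 fold change −0.83, SE 0.43) and Pias1 (−0.55), while Ptpn6 was at −0.62 with overlapping groups. The exception was Socs1, which inhibits the Jak kinases. Socs1 stood at 2.47 and 1.598 CPM in AD and at 3.44 and 2.88 CPM in AD/KO (log2 fold change 0.64, SE 0.55), higher in both AD/KO libraries. The 13 interferon-inducible GTPases tested had a median of −0.57, and 3 of them were lower without overlap, a share near the background of 21.7%. The most abundant, Irgm2 (−0.33) and Gbp9 (−0.85), overlapped between the groups.

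The list of other stimulated genes was nearest to the members. Of 50 tested, 48 were lower (background 52.8%), 26 without overlap (background 21.7%), with a median of −1.01. An unadjusted edgeR p under 0.05 was found for 15, all lower (background 2.3%). Sp100, a nuclear body protein, stood at 84.8 and 62.6 CPM in AD and at 25.8 and 13.9 CPM in AD/KO (log2 fold change −1.89, SE 0.42). Fgl2 stood at 25.04 and 31.3 CPM in AD and at 10.1 and 9.82 CPM in AD/KO (−1.503, SE 0.32). The most abundant, Ly6e (−0.48) and Znfx1 (−0.28), overlapped between the groups.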

How the data were processed

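The authors deposited 1 table of raw read counts per gene symbol for each of the 4 libraries. The submitters' processing notes name HISAT2, featureCounts and the build mm10. Counting settings and the use of strand are not given in the sources used here. Per the labels, RNA was depleted of ribosomal RNA and the kit was stranded. Broken lines, 11 for each library, held no count, which left out 4 genes, none of them a member. The totals are whole reads without molecular identifiers, so that limits cover counting error only.

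Genes were kept by filterByExpr (minimum count 10, minimum total 15) in edgeR 4.0.16 under R 4.3.3, and scaled by TMM. AD/KO was then tested against AD by the quasi-likelihood F-test, with no covariate and all 4 libraries, and with Benjamini-Hochberg adjustment over all 21439 genes at 0.05. The standard error is the log2 fold change divided by the square root of F. Of 200 changes of 3 on the log2 scale simulated for this comparison at the observed biological coefficient of variation (44.5%), 78.5% were called among 20796 genes tested. That change exceeds the largest of any member (−2.54, Cxcl10), and scarce genes were left out of the changed set. The 78.5% is therefore no measure of the power for the members. Alternatives were DESeq2 1.42.0, its size factors, other filters, a replicate block, scaling to 14 homeostatic microglia genes, a neuron and astrocyte covariate, and each library left out. Near-identical transcripts were found with BLAST 2.17.0 (at least 95% over 100 bases) in GENCODE M21; RefSeq (GRCm38.p6) gave promoters and 1-based positions, and all 49993 symbols matched. The members and lists were chosen with earlier results of these data known. By plan, values in every library were given for the members of each family with the smallest and largest p. The plan also held those with an unadjusted p under 0.05, those higher in AD/KO and those not tested. Values of the other members were given in addition. Of each pathway list, the genes named are at most 4 with an unadjusted p under 0.05, the 2 most abundant, and the ligands with a read. Rsad2, Irf9, Isg15, Parp14, Jak2, Socs1, Socs3, Oas1g, Ifi208 and Ifi209 were chosen after their values were seen. Ifi205, Ifi206, Ifi213 and Ifi214 are named because they lie in the HIN-200 cluster.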

Additional observations from a re-analysis of the deposited data

How the results depend on the processing

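The members called numbered 0 in every alternative but the replicate block, and the 43 members' median stayed negative in all. It was −0.46 with scaling to the homeostatic list, −0.71 with the neuron and astrocyte covariate, and −1.41 to −0.72 with each library left out (the extremes without AD/KO replicate 1 and replicate 2), against a reported −0.98. Labels do not say that a replicate number marks a shared litter or day. Deviations of same-numbered libraries correlated at 0.68 across genes, and with the replicate block 4333 genes, 25 members (all lower, background 6.79%) and 35 pathway genes were called. The genes called over the whole table were 91 with DESeq2, 18 with the covariate and 0 to 524 with a library left out (48 without AD replicate 1, 524 without AD replicate 2), and the pathway genes called 0 to 1. The cause was not tested. Signs turned with homeostatic scaling for Ifit3 (0.028), Gbp3 (0.0096), Rsad2 (0.24), Cmpk2 (0.67) and Isg20 (0.0027). With the covariate they turned for Mx2 (0.050), Gbp2 (0.044), Gbp3 (0.54), Gbp7 and the GBP median (0.45), Dhx58 (0.0070), Usp18 (0.16), Bst2 (0.064), Ifi35 (0.14) and Stat2 (−0.38). Stat2 was also at −0.018 without the filter and −0.0087 with the block. With each library left out, Gbp3 ran from −1.03 to 0.15, Gbp7 from −1.30 to 0.10, Stat2 from −0.26 to 0.29 and Cmpk2 from −0.64 to 0.43. Members with an ISRE core numbered 11 in 100 bases and 6 with a spacer of 3.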

Other observations

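Some stimulated genes that are no members peaked in AD replicate 2, the library with the most neutrophil markers. Slfn4 stood at 70.9 CPM there, against 18.0 CPM in AD replicate 1 and 9.12 and 14.1 CPM in AD/KO. Slfn1 stood at 16.6 CPM there, against 4.43, 2.50 and 2.66 CPM, and Ifitm1 at 7.87 CPM, against 2.25, 0.417 and 0.868 CPM. Ifitm2 followed the same order, at 23.4 CPM against 9.87, 6.41 and 6.51 CPM. Of the members, 11 were highest in that library (Ifit1, Ifit2, Oas3, Slfn2, Isg15, Ifitm3, Cxcl10, Rsad2, Cmpk2, Isg20 and Samd9l). AD replicate 2 was also the only library with many Xist reads (1391). The part of neutrophils, or of any other trait of that library, in these values was not tested.

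Slfn9, which neighbours Slfn5 on chromosome 11 (82974316 to 82991830), stood at 82.9 and 45.7 CPM in AD, at 42.9 CPM in AD/KO replicate 1 and at 3.15 CPM in AD/KO replicate 2, a spread within AD/KO that none of the Schlafen members showed. These genes were chosen after their values were seen.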
